A study of Mus musculus with 10 samples.

Results

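Border-associated macrophages and blood monocytes were followed in hippocampal RNA through 10 marker genes, taken by symbol from a table of 21956 genes, and 10 of 10 symbols had a row. Of these, 7 are read mainly as markers of macrophages at the borders of the brain: Mrc1, Cd163, Lyve1, Ms4a7, Pf4, Cbr2 and F13a1. The other 3, Ccr2, Ly6c2 and Plac8, are markers of monocytes. All mice, controls included, had the genotype hMapt, which stands for a human MAPT (tau) gene, and an age of 6 months is given for all. In 5 mice, named circTau6 here, an adeno-associated virus carrying circTau6, a circular RNA from the tau gene, had been injected 80 days before. The 5 control mice are described as control-injected. The sources used here do not give what the control injection held, the viral serotype or the promoter of the vector. The comparison asks whether these markers differ after delivery of circTau6.

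Border-associated macrophages live in the meninges, around vessels and in the choroid plexus, the tissue that makes cerebrospinal fluid. They are long-lived cells that take up proteins and debris through scavenger and lectin receptors, and they are set apart from the microglia of the brain tissue by genes such as Mrc1. Monocytes circulate in blood and can enter the brain when vessels or resident cells release chemokines, and Ccr2 is the receptor that guides the classical Ly6C-positive kind. In bulk tissue, a change in the number of such cells and a change in RNA per cell cannot be told apart.

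The markers rest on few counts, from libraries of 14762952 to 17647138 counts. Levels are given as CPM, the count scaled to a fixed effective library size (the total count adjusted by TMM), and as TPM, which also divides by transcript length, where genes are compared with each other. A count of 0 in the shallowest library allows up to 3 counts or 0.203 CPM, and this limit covers counting error only. The tissue label was matched by markers of hippocampal neurons, chosen for this check. Prox1, a transcription factor of dentate granule neurons, had at least 2149 counts and Wfs1, a CA1 pyramidal gene, at least 1419 counts in each library. Control replicate 2 and circTau6 replicate 5 were poor in choroid plexus transcripts, with 650 and 411 counts of Ttr (transthyretin) against 28538 to 86422 in the others.

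Ly6c2 shares most of its coding sequence with the neighbouring gene Ly6c1, which brain endothelial cells express, so the sequences of both are shown before the values that depend on telling them apart. The first 150 coding bases, about the length of a read, are printed 5′ to 3′ from the GENCODE M21 transcripts, with the bases that differ between the genes in capitals. Among transcripts of equal coding length, the pair with the most identical bases was taken.
Ly6c1: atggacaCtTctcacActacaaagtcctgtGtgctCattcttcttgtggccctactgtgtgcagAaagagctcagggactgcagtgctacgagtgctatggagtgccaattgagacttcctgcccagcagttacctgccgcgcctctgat
Ly6c2: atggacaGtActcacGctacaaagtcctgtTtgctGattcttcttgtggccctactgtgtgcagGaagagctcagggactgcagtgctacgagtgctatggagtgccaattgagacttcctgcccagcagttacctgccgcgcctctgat
These stretches differ at 6 bases, and the whole coding sequences differ at 9 of 396, with 387 identical (97.7%). The longest identical run was 188 bases. Reads were 150 bp long, and a stretch of that length held between 0 and 6 differing bases. Single reads from parts of these transcripts therefore match both genes, though the other read of a pair can hold a differing base. The sources used here do not say how the counting placed such reads, so Ly6c2 values are uncertain. On GRCm38 the Ly6c2 gene lies on the minus strand of chromosome 15 from 75108158 to 75111970, and Ly6c1 on the same strand from 75044018 to 75048830.

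Promoter sequences of GRCm38.p6 from RefSeq were found for 9 of the 10 markers. The 250 bases before each start site were searched on both strands for GAGGAAGT, letters of the kind bound by PU.1, a master transcription factor of macrophages and monocytes, and for TGCTGAC, letters of the kind bound by MAF. GAGGAAGT occurred for 2 markers, Pf4 and Ly6c2, and TGCTGAC for 0, while 2.44% and 3.81% of 32851 promoter windows of this length hold them. A match of letters is no evidence of binding, and the absence of a match shows only that the letters are not in the window. For each of these 2 markers 1 promoter window is shown with the match in capitals, read 5′ to 3′ on the gene's strand. That of Pf4 is chr5:90772185-90772434 (plus strand) and that of Ly6c2 is chr15:75111972-75112221 (minus strand).
Pf4: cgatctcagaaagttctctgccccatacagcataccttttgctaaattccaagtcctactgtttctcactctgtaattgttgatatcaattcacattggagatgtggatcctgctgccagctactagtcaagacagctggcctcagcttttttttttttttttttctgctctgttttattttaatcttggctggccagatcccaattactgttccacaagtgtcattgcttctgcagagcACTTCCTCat
Ly6c2: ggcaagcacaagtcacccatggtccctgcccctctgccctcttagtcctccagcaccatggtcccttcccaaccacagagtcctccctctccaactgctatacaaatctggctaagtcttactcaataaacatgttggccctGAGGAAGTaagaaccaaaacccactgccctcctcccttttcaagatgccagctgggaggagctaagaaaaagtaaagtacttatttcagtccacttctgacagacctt
In Pf4 the match is on the opposite strand and its left end lies 10 bases before the start site, and in Ly6c2 it begins 108 bases before the outermost of 2 start sites. The window of the inner start site of Ly6c2, not shown, holds the same match 142 bases before that site and another 8 bases before it. The same letters also occur before 1 of 2 start sites of Ly6c1.

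In control libraries the markers were low and close to each other. On the TPM scale the highest mean was that of Mrc1, 2.64 TPM ± 0.678 (SD, n = 5). It was followed by Pf4 at 1.78, F13a1 at 1.73, Ly6c2 at 1.62, Lyve1 at 1.39, Cbr2 at 1.38, Cd163 at 1.29 and Ms4a7 at 1.01 TPM. Ccr2 at 0.310 TPM and Plac8 at 0.202 TPM came last. Each neighbouring pair in this order had overlapping ranges over the 5 control libraries, so the order is not resolved between neighbours. Mrc1 was above Pf4 in 5 of 5 control libraries. For scale, the microglial genes Cx3cr1 (the fractalkine receptor) and Tmem119 had control means of 29.4 and 18.4 TPM. In circTau6 libraries Ly6c2 came first with a mean of 4.18 TPM ± 3.66 (SD, n = 5), and its range overlapped that of Mrc1, the next.

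Across all genes, 0 of 14396 tested passed the edgeR quasi-likelihood test at an adjusted p under 0.05 (0% called), and 0 of the 6 markers tested passed. DESeq2 called 14 genes and limma voom 2, with 0 of the markers among them. DESeq2 gave no adjusted p for Ms4a7, Pf4 and Plac8, and limma voom was run on the same 6 markers only, so the markers left out could not be called. At an unadjusted p under 0.05 there were 637 genes, 4.42% of those tested, and 1 of the 6 markers, Ccr2. Of those genes 371, 2.58% of all tested, had higher circTau6 levels, as Ccr2 did. Each of the 10 markers had overlapping groups, and over all genes tested 0.472% had every circTau6 library above every control. A count filter removed 4 markers before the test: Ms4a7, Pf4, Ly6c2 and Plac8. It asked for at least 0.595 CPM of the unscaled total in 5 libraries. Ccr2 met it through 4 circTau6 libraries and 1 control library, so its passing depends on the group where it was higher. For the 4 removed markers, counts and an exact permutation test of the group means are given instead.

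**Figure D1:**
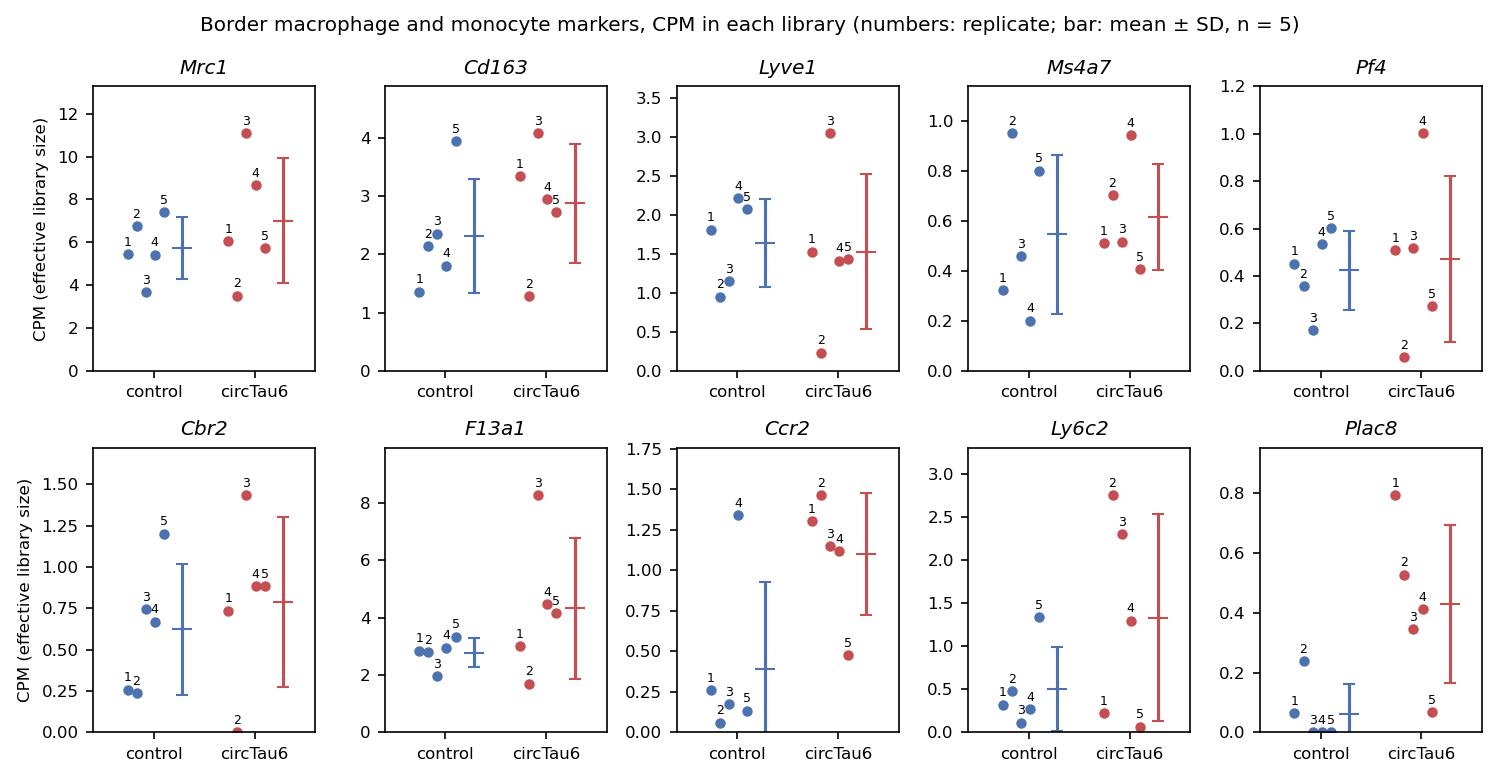
CPM of each marker (vertical axis, one panel per gene, each from 0) in 5 control (blue) and 5 circTau6 (red) libraries, with replicate numbers, and mean ± SD beside the points (bars that pass below 0 are cut at the axis). The groups overlap in all 10 panels, with circTau6 replicate 2 at the bottom of 6 of the 7 border macrophage panels and circTau6 replicate 3 at the top of 5.

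The border macrophage receptors did not differ between groups beyond their spread. Mrc1, the mannose receptor CD206 (chromosome 2, 14229392 to 14332057, plus strand), had 5.43, 6.77, 3.67, 5.42 and 7.41 CPM in control replicates 1 to 5. In circTau6 replicates 1 to 5 it had 6.06, 3.51, 11.1, 8.65 and 5.71 CPM. Both the highest and the lowest library were circTau6, replicates 3 and 2, and the controls lay between them. The log2 fold change was 0.29 ± 0.28 (SE), with an edgeR adjusted p of 0.981. Without circTau6 replicate 3 it was 0.06, and without circTau6 replicate 2 it was 0.46.

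Cd163, the scavenger receptor for haemoglobin bound to haptoglobin (chromosome 6, 124304656 to 124330527, plus strand), followed the same order at the ends. Its control values were 1.36, 2.14, 2.35, 1.81 and 3.94 CPM. The circTau6 values were 3.34, 1.29, 4.08, 2.94 and 2.72 CPM. Again circTau6 replicates 3 and 2 were the highest and the lowest of all 10 libraries, and control replicate 5 stood close to the highest. The log2 fold change of Cd163 was 0.31 ± 0.31 (SE), with an edgeR adjusted p of 0.981, and it lay between 0.15 without circTau6 replicate 3 and 0.58 without control replicate 5.

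Lyve1, a hyaluronan receptor of perivascular macrophages and of lymphatic vessels (chromosome 7, 110850607 to 110863239, minus strand), was the only one of the 6 tested markers with a negative fold change, smaller than its error. It had 1.81, 0.950, 1.15, 2.21 and 2.07 CPM in control and 1.53, 0.234, 3.04, 1.41 and 1.43 CPM in circTau6 libraries. In that group replicate 2 held only 4 counts of Lyve1, while replicate 3 held 53. The log2 fold change was −0.09 ± 0.45 (SE), with an edgeR adjusted p of 0.994, and it was 0.19 without circTau6 replicate 2 and −0.50 without circTau6 replicate 3. Of 6 genes of lymphatic vessels, 4 passed the count filter: Flt4, Pdpn, Reln and Prox1, the last also used above as a neuronal marker. Their median log2 fold change was 0.03, with 2 positive and 2 negative, and 0 passed the edgeR test. Every library held at least 49 counts of Flt4. The remaining genes, Ccl21a and Mmrn1, were at 0 in 3 of 5 libraries of each group, with at most 3 counts in any library. The part of lymphatic vessels in the Lyve1 values was not tested.

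Neither enzyme gene of the border macrophage set passed the test. F13a1 encodes the A subunit of coagulation factor XIII, a transglutaminase made by macrophages and monocytes (chromosome 13, 36867178 to 37050244, minus strand). Its control values were 2.85, 2.79, 1.95, 2.95 and 3.34 CPM, the tightest spread among the markers relative to the mean. The circTau6 values were 3.00, 1.70, 8.27, 4.47 and 4.15 CPM. In 3 of 5 circTau6 libraries F13a1 was above every control, and replicate 2 was below every control. The log2 fold change was 0.64 ± 0.34 (SE), with an unadjusted edgeR p of 0.0795 and an adjusted p of 0.981. It was 0.26 without circTau6 replicate 3, and 0.85 without circTau6 replicate 2, with an adjusted p of 0.924 there.

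Cbr2, a carbonyl reductase (chromosome 11, 120729489 to 120732114, minus strand), had 0.259, 0.237, 0.746, 0.670 and 1.20 CPM in control libraries. In circTau6 libraries it had 0.737, 0, 1.44, 0.883 and 0.884 CPM. Replicate 2 of the circTau6 group held no count of Cbr2, and replicate 3 had the highest level. The log2 fold change was 0.34 ± 0.62 (SE), with an edgeR adjusted p of 0.988, and it fell to 0.01 without circTau6 replicate 3.

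Ms4a7 and Pf4 were below the filter and did not differ between groups in the exact test. Ms4a7, a membrane protein of macrophages (chromosome 19, 11321039 to 11336146, minus strand), had 3 to 16 counts in control and 6 to 16 counts in circTau6 libraries. Its control mean was 0.547 CPM ± 0.318 (SD, n = 5) and its circTau6 mean 0.616 CPM ± 0.211 (SD, n = 5), and the exact permutation test gave p = 0.690 (two-sided, as below). Pf4, the chemokine CXCL4 of border macrophages and platelets (chromosome 5, 90772435 to 90773383, plus strand), had 3 to 9 counts in control and 1 to 17 counts in circTau6 libraries. Its means were 0.424 CPM ± 0.168 (SD, n = 5) and 0.472 CPM ± 0.351 (SD, n = 5), and the exact permutation test gave p = 0.817. The platelet gene Ppbp was at 0 in 3 of 5 libraries of each group. The summed level of the 8 platelet genes was 2.24 to 3.30 CPM in control and 1.29 to 3.36 CPM in circTau6 libraries, with circTau6 replicate 2 lowest, as for Pf4, and its part in the Pf4 values was not tested.

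Each of the 3 monocyte markers had a higher mean in circTau6 than in control libraries, in sparse counts and with overlapping groups. Ccr2, the receptor for the chemokine CCL2 (chromosome 9, 124101950 to 124113557, plus strand), had 4, 1, 3, 20 and 2 counts in control replicates 1 to 5. In the circTau6 libraries it had 23, 25, 20, 19 and 7 counts. On the CPM scale the control mean was 0.393 ± 0.534 (SD, n = 5), and the circTau6 mean was 1.10 ± 0.376 (SD, n = 5). Control replicate 4, at 1.34 CPM, lay above every circTau6 library except replicate 2 at 1.46 CPM, while the other controls were at 0.0593 to 0.259 CPM and below every circTau6 library.

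The log2 fold change of Ccr2 was 1.52 ± 0.60 (SE), with an unadjusted edgeR p of 0.0241 and an adjusted p of 0.981. Without control replicate 4 it was 2.78, with an unadjusted p of 6.19e-05 and an adjusted edgeR p of 0.300. Leaving out 5 of the 10 libraries in turn brought the unadjusted p above 0.05: it was 0.0550 without control replicate 1, 0.0525 without control replicate 2, 0.0599 without control replicate 3, 0.0596 without control replicate 5 and 0.0532 without circTau6 replicate 2. Over 24 alternatives the fold change was positive in 24, from 0.46 to 2.78, and the lowest adjusted p was that 0.300. Ccr2 gave 20 of the 24 counts of the 3 monocyte markers in control replicate 4, and Plac8 was at 0 there. The summed level of 10 neutrophil genes was 3.41 CPM in that library, the highest control, against 0.287 to 2.87 CPM in the others. Control replicate 5 held the 2.87 CPM, and its Ccr2 level was below every circTau6 library. The part of neutrophils in the Ccr2 level of control replicate 4 was not tested.

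Ly6c2, which encodes a surface protein of classical monocytes, had 5, 8, 2, 4 and 20 counts in control and 4, 47, 40, 22 and 1 counts in circTau6 libraries. Replicates 2 and 3 of the circTau6 group were above every control, and replicates 1 and 5 were in or below the control range. The means were 0.503 CPM ± 0.483 (SD, n = 5) and 1.33 CPM ± 1.20 (SD, n = 5), and the exact permutation test gave p = 0.270. Ly6c1, the look-alike gene, had 24.3 to 32.6 CPM over all libraries and its log2 fold change was 0.07 ± 0.08 (SE). The library with the most Ly6c2, circTau6 replicate 2 at 2.75 CPM, had the lowest Ly6c1, at 24.3 CPM. On the TPM scale the control mean was 94.1 for Ly6c1 and 1.62 for Ly6c2, and what part of the Ly6c2 counts came from Ly6c1 reads was not tested.

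Plac8, a small cysteine-rich protein of monocytes and other leukocytes (chromosome 5, 100553725 to 100572245, minus strand), was the sparsest marker. Control replicates 1 to 5 held 1, 4, 0, 0 and 0 counts. The circTau6 libraries held 14, 9, 6, 7 and 1 counts. In 4 of 5 circTau6 libraries Plac8 was above every control, and replicate 5 was within the control range. The means were 0.0604 CPM ± 0.103 (SD, n = 5) and 0.429 CPM ± 0.265 (SD, n = 5), and the exact permutation test gave p = 0.0159, where 0.00794 is the smallest that 5 against 5 libraries allow. In total 5 control and 37 circTau6 counts give a ratio of 7.03 with a 95% exact binomial interval of 2.76 to 22.9, which covers counting error only. With no count filter, the edgeR log2 fold change was 2.65 ± 0.86 (SE), with an adjusted p of 0.906 over all genes. The exact test was run on each of the 4 markers under the filter. In the authors' deposited table, from a test that no source names, the lowest FDR of any of the 10 markers was 0.987, and 8 genes had an FDR under 0.05. The unadjusted p of that test was 0.00722 for Plac8, 0.0100 for Ccr2, 0.0235 for F13a1 and 0.0307 for Ly6c2, each with a positive log2 ratio. For the other markers it was at least 0.144.

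**Figure D2:**
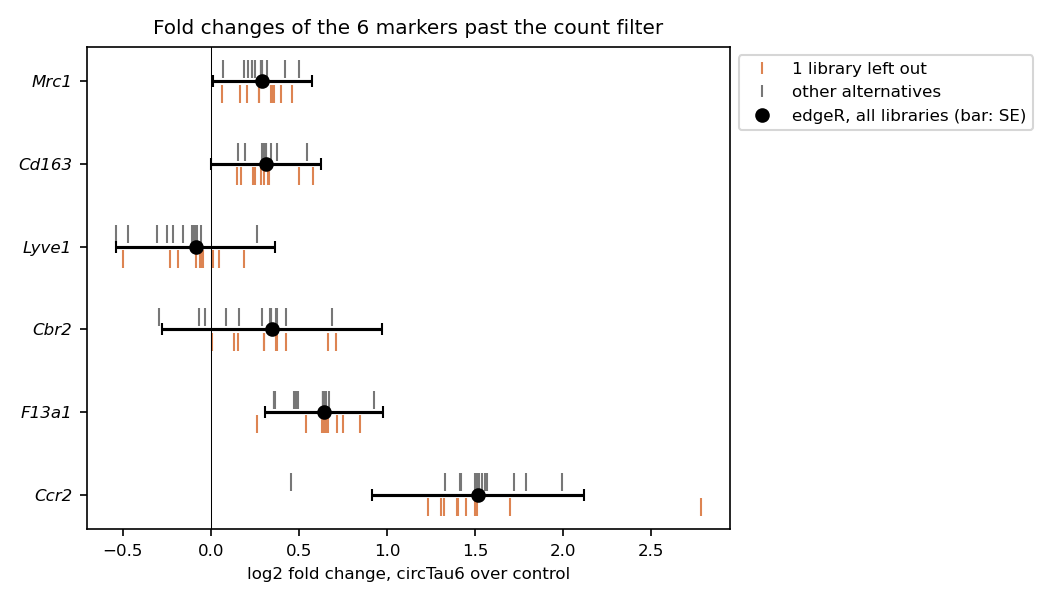
Log2 fold change of circTau6 over control (horizontal axis) for the 6 markers past the count filter, with the edgeR value and its SE in black, fits with 1 library left out in orange and the other alternatives in grey. Ccr2 moves from 1.52 to 2.78 when control replicate 4 is left out, and F13a1 from 0.64 to 0.26 without circTau6 replicate 3.

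Several border markers were high or low together from library to library, and Ccr2 showed no such relation to them over all 10 libraries. Over the 10 libraries circTau6 replicate 2 was lowest in 6 of 7 border macrophage markers and highest in 2 of 3 monocyte markers, Ccr2 and Ly6c2. Summed over the 7 border markers it had 7.49 CPM, the lowest of all libraries, and over the 3 monocyte markers 4.74 CPM, the highest. In circTau6 replicate 3 the border sum was 28.9 CPM, the highest of all, and the monocyte sum was 3.79 CPM. Control libraries had border sums of 10.5 to 19.4 CPM and monocyte sums of 0.287 to 1.61 CPM. Monocyte sums of the circTau6 libraries were 0.612 CPM in replicate 5 and 2.32 to 4.74 CPM in the other 4, so replicate 5 alone lay within the control range. Ly6c2, whose values are uncertain, made up 2.75 CPM of the sum in circTau6 replicate 2. Ccr2 made up 1.34 CPM of the highest control sum, that of control replicate 4. The share of all genes with 4 circTau6 libraries above every control was not counted.

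**Figure D3:**
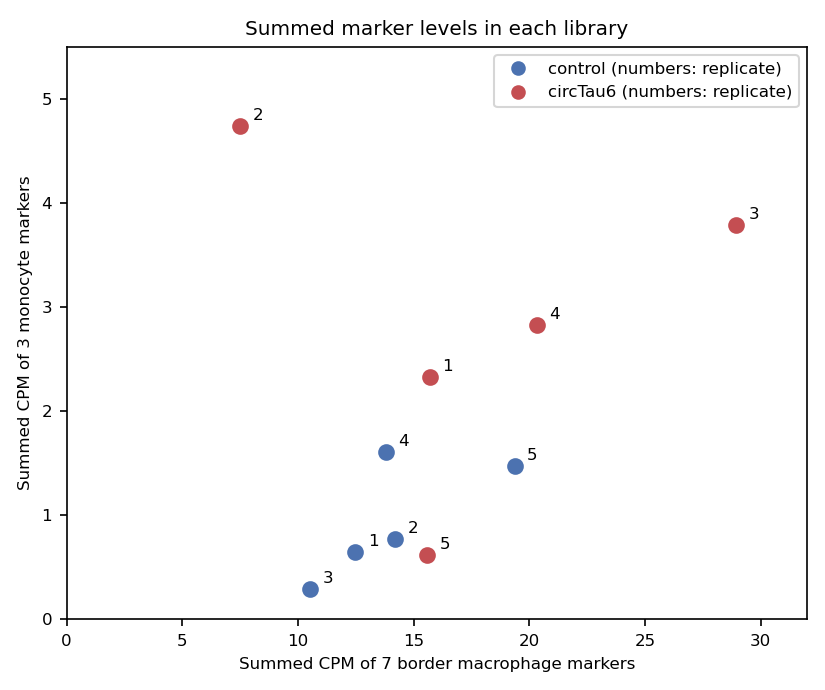
Summed CPM of the 7 border macrophage markers (horizontal axis) and of the 3 monocyte markers (vertical axis) in each library, blue for control and red for circTau6, with replicate numbers. The circTau6 libraries span 7.49 to 28.9 CPM of border markers, and 4 of them lie above the control maximum of 1.61 CPM for monocyte markers. The monocyte sums include Ly6c2, whose values are uncertain, and the control maximum is mostly Ccr2 in control replicate 4.

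Over 15 pairs of tested markers, Pearson's r of log2 CPM across the 10 libraries was highest for Mrc1 and F13a1. It was 0.91 (permutation p of 0.00041, 0.0054 after Benjamini-Hochberg adjustment over the 15), with Spearman's rho of 0.82 (permutation p of 0.00586, adjusted 0.0271). Without the 2 libraries farthest from the median of Mrc1, circTau6 replicates 3 and 2, it was 0.79. Cd163 and Cbr2 had r of 0.85 (permutation p of 0.00072, adjusted 0.0054) and rho of 0.88 (permutation p of 0.00173, adjusted 0.0259), and r was 0.73 without circTau6 replicate 2 and control replicate 1. Lyve1 and Cbr2 had r of 0.85 (permutation p of 0.00589, adjusted 0.0294), rho of 0.58 (permutation p of 0.0892, adjusted 0.167), and r of 0.36 without circTau6 replicates 2 and 3, so that relation rests on those libraries. Ccr2 had r of −0.06 to 0.22 with the 5 border markers, with adjusted permutation p of at least 0.753. Without the 2 libraries farthest from the median of each border marker, r of Ccr2 was 0.14 to 0.42.

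Of the 5 tested border markers, 2 were related to the level of meningeal and endothelial transcripts across libraries, Mrc1 and F13a1. The 12 meningeal fibroblast genes, among them Dcn (decorin), Col1a1 and Col1a2, had summed levels of 204 to 415 CPM in control and 164 to 584 CPM in circTau6 libraries. Their mean log2 CPM was lowest in circTau6 replicate 2, at 2.95, and highest in circTau6 replicate 3, at 4.88, the same libraries as for the summed border markers. On the summed scale the highest library was the same, but the lowest was circTau6 replicate 5 at 164 CPM, with control replicate 2 at 204 CPM also below the 207 CPM of circTau6 replicate 2. Across 18 relations of tested markers with 3 cell lists, Mrc1 had r of 0.83 with the meningeal list (permutation p of 0.00334, adjusted 0.0389) and rho of 0.77 (permutation p of 0.0128, adjusted 0.0928). Without circTau6 replicates 3 and 2 that r was 0.55. F13a1 had r of 0.80 (permutation p of 0.00628, adjusted 0.0389) and rho of 0.60 (permutation p of 0.0737, adjusted 0.208) with the meningeal list, and 0.36 without the same libraries, so the relation of F13a1 rests on them. The other 3 did not pass with the meningeal list. Lyve1 had r of 0.72 (permutation p of 0.0206, adjusted 0.0618) and 0.15 without the same libraries, Cbr2 r of 0.59 (permutation p of 0.0756, adjusted 0.194) and −0.09 without them, and Cd163 r of 0.54 (permutation p of 0.104, adjusted 0.209) and 0.02 without them. Their rho values were 0.48, 0.44 and 0.59, with adjusted permutation p of 0.334, 0.369 and 0.208.

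With the 10 endothelial genes, which sum to 315 to 369 CPM in control and 338 to 418 CPM in circTau6 libraries, F13a1 had r of 0.82 (permutation p of 0.00649, adjusted 0.0389). Its rho was 0.75 (permutation p of 0.0173, adjusted 0.0928), and r was 0.68 without circTau6 replicate 3 and control replicate 4. Mrc1 had r of 0.76 with them (permutation p of 0.0111, adjusted 0.0499), rho of 0.73 (permutation p of 0.0206, adjusted 0.0928), and r of 0.64 without those libraries. Cd163, Cbr2 and Lyve1 had r of 0.71, 0.56 and 0.49 with the endothelial list, with adjusted permutation p of 0.0618, 0.209 and 0.269, and rho of 0.73, 0.67 and 0.39, with adjusted permutation p of 0.0928, 0.138 and 0.432. With the homeostatic microglia list the 6 tested markers had r of −0.13 to 0.37, each with an adjusted permutation p of at least 0.468. Without circTau6 replicate 5 and control replicate 5, the farthest from the median of that list, r was −0.03 to 0.56, highest for Cd163. Ccr2 had r of 0.09 with the meningeal list (permutation p of 0.799, adjusted 0.850) and rho of −0.18 (permutation p of 0.630, adjusted 0.944). With the meningeal level as a covariate, the edgeR log2 fold change of Mrc1 was 0.07 and that of F13a1 0.36, against 0.29 and 0.64 without it, and that of Ccr2 was 1.56. Cd163 was at 0.15 and Cbr2 at −0.03, against 0.31 and 0.34, while Lyve1 moved away from 0, to −0.47 against −0.09. With the microglia level as the covariate instead, Mrc1 was at 0.50, F13a1 at 0.93, Cd163 at 0.55, Cbr2 at 0.69, Lyve1 at 0.26 and Ccr2 at 1.72. How far the amount of meninges sets the border marker levels was not tested beyond these values.

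**Figure D4:**
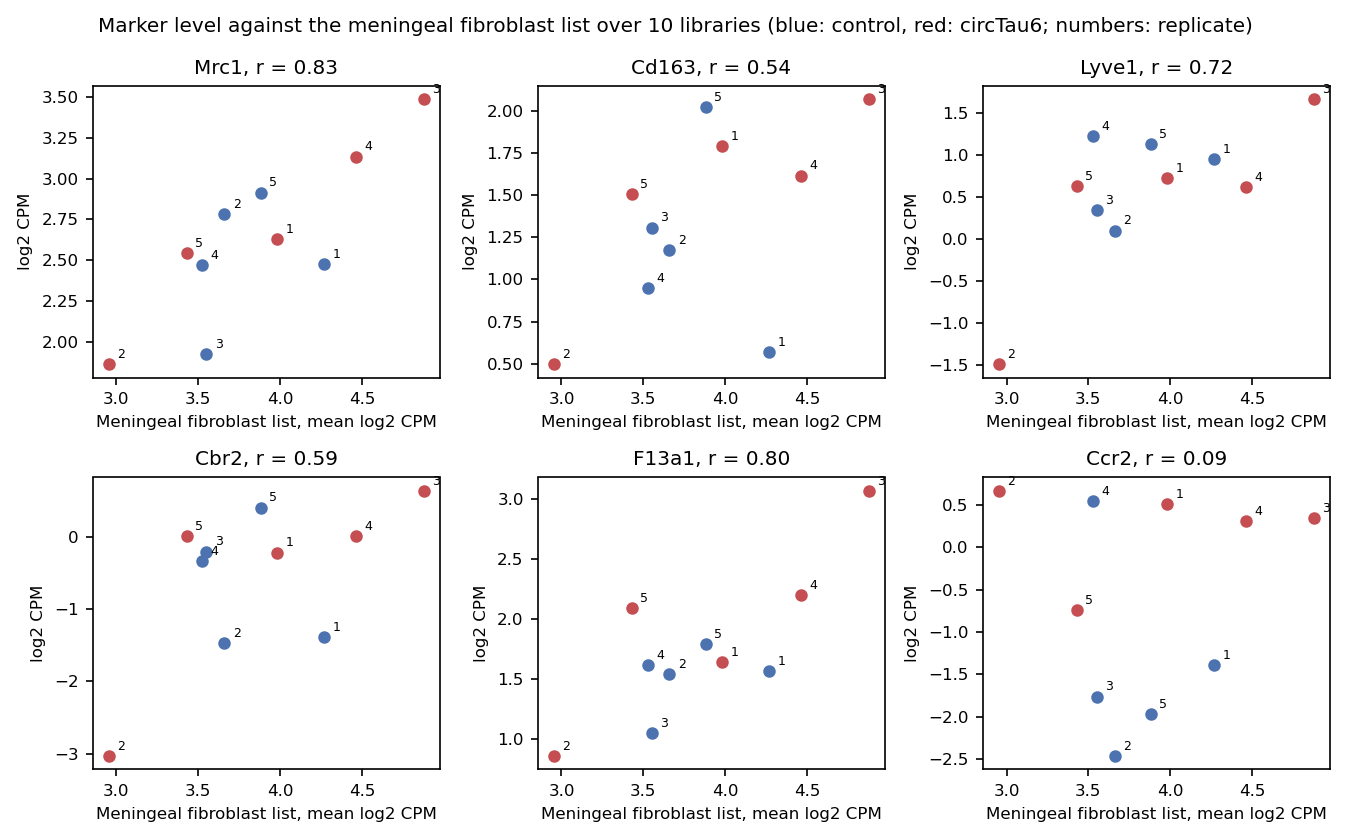
Log2 CPM of the 6 tested markers (vertical axes) against the mean log2 CPM of 12 meningeal fibroblast genes (horizontal axis), one point per library, blue for control and red for circTau6, with replicate numbers. Mrc1 and F13a1 are higher where the list is higher, from circTau6 replicate 2 to circTau6 replicate 3 (r of 0.83 and 0.80), and Ccr2 shows no such slope (r of 0.09).

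In the libraries poor in choroid plexus transcripts, most border macrophage markers were within the range of their group. Control replicate 2 was the lowest control for 2 of the 7, Lyve1 at 0.950 CPM and Cbr2 at 0.237 CPM, and circTau6 replicate 5 the lowest circTau6 library for 1, Ms4a7 at 0.408 CPM. Control replicate 2, with a choroid plexus list sum of 261 CPM against 3327 to 5027 CPM in the other controls, had 6.77 CPM of Mrc1, within the range of the others. In circTau6 replicate 5, with a list sum of 243 CPM against 2202 to 5990 CPM, Mrc1 was at 5.71 CPM and the border sum at 15.6 CPM, both within the range of the other circTau6 libraries. Of the 20 further border macrophage genes, 3 were the lowest of their group in both libraries: Dab2, an endocytic adaptor, Tgfbi, a matrix protein, and Hpgd, an enzyme that inactivates prostaglandins. Dab2 was at 15.9 CPM in control replicate 2, against up to 34.8 CPM in the other controls, and at 11.2 CPM in circTau6 replicate 5, against up to 44.0 CPM in the other circTau6 libraries. The part of choroid plexus in these levels was not tested. All 3 monocyte markers, Ccr2, Ly6c2 and Plac8, had their lowest circTau6 level in replicate 5, at 0.476, 0.068 and 0.068 CPM. In control replicate 2 Ccr2 was the lowest of all 10 libraries, at 0.0593 CPM, while Plac8 was the highest control, at 0.237 CPM. Without both libraries the log2 fold change was 1.41 for Ccr2, 0.65 for F13a1 and 0.42 for Mrc1, with 0 markers passing the edgeR test.

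Other genes of these cells gave no passing member. Of 20 further border macrophage genes, 9 were tested and 0 passed in either direction at an adjusted p under 0.05 by edgeR, or at an unadjusted p under 0.05. Of these, 3 had positive and 6 negative fold changes with a median of −0.08 (0.01 over the 10 tested without control replicate 5), against a median of −0.00024 and 49.9% positive over all genes. Those with the lowest p were the iron exporter Slc40a1 at −0.13 ± 0.11 (SE), the transcription factor Maf at −0.08 ± 0.07 (SE) and the scavenger receptor Cd36 at −0.37 ± 0.42 (SE) on the log2 scale. Several of this list, such as Maf and Slc40a1, are also expressed by other brain cells.

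Of 20 further monocyte genes, 8 were tested, 6 had positive values with a median log2 fold change of 0.09, and 0 passed over all genes. Without control replicate 2 the median was 0.05, with 5 positive and 5 negative among 10 tested. Itgal, the integrin LFA-1 alpha chain of leukocytes, had 0.402 to 1.42 CPM in control and 1.19 to 2.99 CPM in circTau6 libraries. Its log2 fold change was 0.87 ± 0.35 (SE), and the adjusted edgeR p was 0.981. Spn, the leukocyte sialoprotein CD43, had 0.54 ± 0.34 (SE), and Fn1 (fibronectin) 0.26 ± 0.21 (SE) on the log2 scale. The control mean of Fn1 was 92.6 CPM, against 0.393 CPM for Ccr2, and the part of other cells in this list was not tested. Of 18 ligands and partners of the markers, 10 were tested, 9 had positive values and 0 passed. The macrophage growth factor receptor Csf1r had 0.17 ± 0.06 (SE), the adhesion molecule Icam1, a partner of LFA-1, 0.66 ± 0.23 (SE), and the hyaluronan receptor Cd44 0.24 ± 0.23 (SE) on the log2 scale, with adjusted edgeR p of 0.981. The Ccr2 ligand genes Ccl2, Ccl7 and Ccl12 were below the filter. Over the control libraries they had 20, 17 and 44 counts, and over the circTau6 libraries 9, 10 and 47 counts. For Ccl2, 1 control library held 12 of its 20 control counts.

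Lists of other leukocytes and of blood were read beside the monocyte markers. The 5 red blood cell genes had summed levels of 7.50 to 63.8 CPM in control and 2.99 to 17.5 CPM in circTau6 libraries, and 4 of 4 tested members had negative fold changes with a median of −0.89 on the log2 scale, 0 passing. Control replicate 3 held the 63.8 CPM, against 7.50 to 18.9 CPM in the other controls, and without it the median was −0.08 with 2 members positive and 2 negative. The neutrophil genes had summed levels of 0.287 to 3.41 CPM and 1.11 to 4.18 CPM, with 0 of 10 tested and Ly6g at 0 in all libraries. The 9 T and NK cell genes summed to 1.54 to 3.60 CPM in control and 2.38 to 5.21 CPM in circTau6 libraries. For Trac, the T cell receptor alpha constant gene, the log2 fold change was 1.18 ± 0.45 (SE), and the adjusted edgeR p was 0.981. The median Trac level was 0.344 CPM over controls, under the filter's 0.595 CPM, and 0.746 CPM after circTau6. Its passing of the filter thus rested more on the group where it was higher. Lck, the only other gene of this list tested, was at 0.27 ± 0.32 (SE) on the log2 scale. T cells can also carry Ccr2 and Plac8, and the part of these cells in the monocyte markers was not tested.

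The 8 dendritic cell genes summed to 16.9 to 20.7 CPM and 18.0 to 23.1 CPM. Of these, 4 were tested with a median log2 fold change of 0.51, led by the integrin gene Itgax at 0.97 ± 0.47 (SE). Clec9a, also among the 4, had a control median of 0.453 CPM, under the filter's 0.595 CPM, and a circTau6 median of 0.761 CPM. As for Trac, its passing rested more on the group where it was higher. The 6 B and plasma cell genes summed to 2.28 to 12.02 CPM and 1.64 to 31.7 CPM, and the one tested, Jchain (the joining chain of antibodies), was at 1.33 ± 0.84 (SE) on the log2 scale.

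Genes shared by all myeloid cells were read beside the markers. All 10 pan-myeloid genes were tested, 10 had positive values with a median log2 fold change of 0.33, 7 had an unadjusted p under 0.05 with a higher circTau6 level, and 0 passed over all genes. Over all genes tested, 49.9% had positive values and 2.58% were higher at that unadjusted p. The pan-myeloid list was chosen with earlier results of these data known, so its counts beside these shares are no independent support for a group difference. Of the pan-myeloid genes, edgeR gave the leukocyte gene Ptprc (CD45) the lowest adjusted p, 0.0713. For Adgre1, the macrophage receptor F4/80, the log2 fold change was 0.71 ± 0.13 (SE). Of 11 homeostatic microglia genes in the table, 9 had positive values with a median of 0.08, led by Tmem119 at 0.25 ± 0.08 (SE). Whether the border markers differ from these lists in their response was not tested, and the values stand side by side. The pan-myeloid list summed to 164 to 182 CPM in control and 195 to 219 CPM in circTau6 libraries, ranges that do not overlap, while the border sums of the same libraries do. The median of the 5 tested border markers was 0.31. With 1 library left out, the median of the border markers tested in that fit lay between 0.11 and 0.58. It was 0.11 over 6 markers without circTau6 replicate 3, and 0.58 over 5 markers without control replicate 5.

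**Figure D5:**
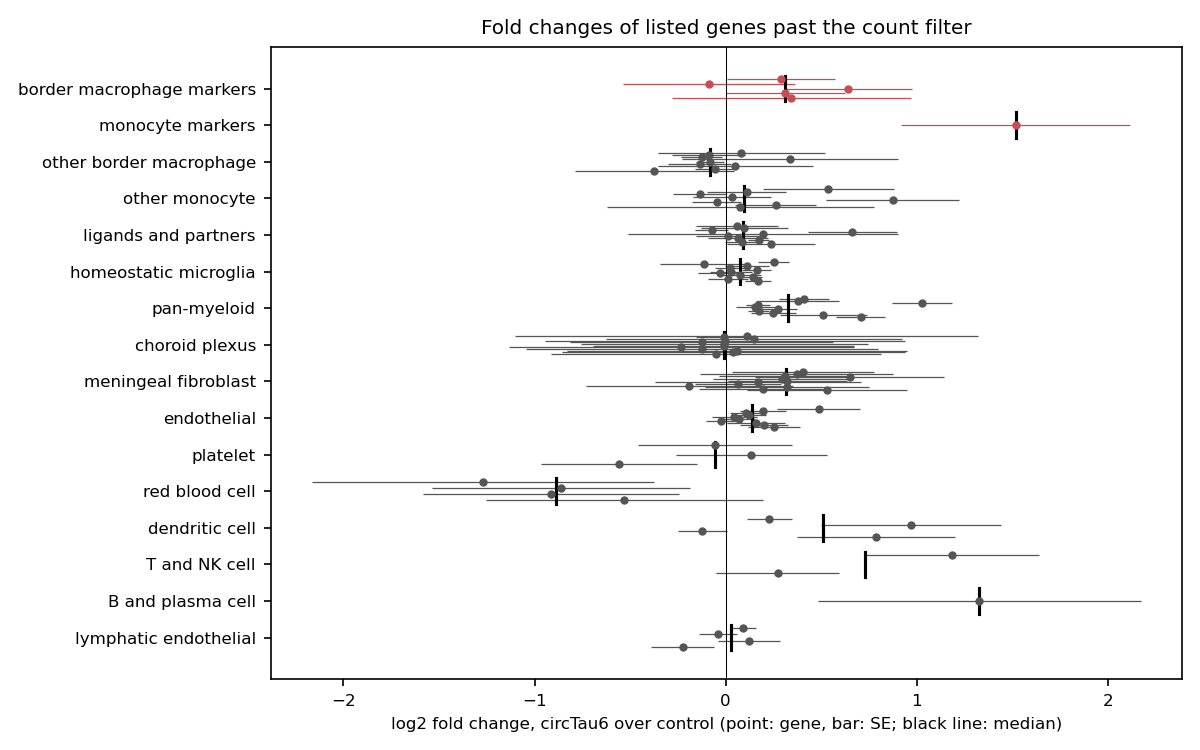
Log2 fold change of circTau6 over control (horizontal axis) of each tested gene, by list, as points with SE and a black line at the list median; the markers described here are red. No gene passed the edgeR test, the border macrophage markers lie around a median of 0.31 and the pan-myeloid genes around 0.33.

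Genes whose log2 CPM followed a marker most closely over the 10 libraries were searched among 12789 genes, and the values describe these libraries only. Mrc1 was followed by Col9a2, a collagen chain, with r of 0.96 and Olfml2a with r of 0.95. F13a1 was followed by Thbd, the endothelial thrombin receptor thrombomodulin, with r of 0.98 and Fxyd5 with r of 0.94. Cd163 was nearest to Tom1l1 and Msto1 (r of 0.96 and 0.92), Lyve1 to Chchd3 and Plod1 (0.95 and 0.94), and Cbr2 to Hexa and Tbc1d31 (0.94 and 0.92). Ccr2 was followed by the cell cycle inhibitor gene Cdkn1a with r of 0.89.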

How the data were processed

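RNA of 10 hippocampi was read as ribosome-depleted, strand-specific libraries of 150 bp pairs, per the labels' protocols. The authors deposited, per the file headers, whole-number counts and TPM per gene and library, the mean TPM of each group, the log2 ratio of those means, and p-values and FDR of a test that no source names. StringTie 1.3.1 and RSEM are listed in the submitters' processing notes without a role. Aligner, build and gene models were not given in the sources used. Gene positions are those of GENCODE M21 on GRCm38, matched by gene ID (21804 of 21956).

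Counts were tested in edgeR 4.0.16 (R 4.3.3) with filterByExpr, TMM and the robust quasi-likelihood F test, with Benjamini-Hochberg adjustment over 14396 genes at 0.05. The SE is the fold change over the root of F. Log2 CPM used a prior count of 2. Markers under the filter were compared by an exact permutation test, two-sided, over all splits into 5 and 5, and correlations with 100000 permutations. The script was tested on simulated data. Alternatives used DESeq2 1.42.0, limma 3.58.1, other scalings, filters, covariates and left-out libraries.

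The 10 markers and all lists were chosen with earlier results of these data known. The markers were all described. From each other list up to 3 tested genes of lowest p were named, with Ly6c1, Ttr, Cx3cr1 and Tmem119, and for likeness the 2 genes of highest r (1 such gene is not reported here). Prox1, Wfs1, Dab2, Tgfbi, Hpgd, the ligand genes Ccl2, Ccl7, Ccl8 and Ccl12, the examples Dcn, Col1a1 and Col1a2, and the genes named at 0 were added after values were seen. The labels do not give cage or day, so a difference in either between the groups could not be told apart from that of circTau6. The p-values measure the spread between these samples only.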

Additional observations from a re-analysis of the deposited data

Results flagged for a closer look

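Of 28 groups of 5 values examined (the 10 markers and 4 cell lists in each treatment), 2 held a library far from the other 4 of its group, and chance picks out about 5 in 100 such groups. Control replicate 4 had 1.34 CPM of Ccr2, where the other controls had at most 0.259 CPM. Control replicate 2 had 0.237 CPM of Plac8, from 4 counts, where the other controls had at most 1 count.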

How the results depend on the processing

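The number of markers passing the test was 0 in the edgeR fit and under each of 24 alternatives, 1 of which, leaving out circTau6 replicates 2 and 3 together, was chosen after seeing the data. A marker that a fit's filter removed, or that had no adjusted p, as Ms4a7, Pf4 and Plac8 in DESeq2, could not pass in that fit. The number of all genes passing was 0 in the edgeR fit, 14 with DESeq2, 2 with limma voom, 2 with library totals only, 2 with no count filter, 4 with the replicate block, 3 without both choroid-poor libraries and 2 with the choroid plexus covariate. It ranged from 0 to 4 with 1 library left out. Genes of the other lists that passed were 0 in the edgeR fit, 2 with DESeq2, and 1 with limma voom, with library totals only, with no filter, without both choroid-poor libraries and with the choroid plexus covariate, and 0 with any 1 library left out. The cause of these shifts was not tested.

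The log2 fold changes of Mrc1, Cd163, F13a1 and Ccr2 kept their sign in 24 of 24 alternatives. Those of Lyve1 and Cbr2 did not. With 1 library left out Lyve1 ranged from −0.50 to 0.19. It was at 0.05 without control replicate 4, 0.01 without control replicate 5, 0.19 without circTau6 replicate 2 and 0.26 with the microglia covariate. Cbr2 was at −0.29 with limma voom, −0.070 on log2(TPM + 0.1) and −0.032 with the meningeal covariate. Of the 6, Ccr2 had an unadjusted p under 0.05 in 18 of 24 alternatives.

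The replicate numbers of the labels paired nothing known: the correlation of deviations between same-numbered libraries was −0.08 to 0.14, and 0 of the 5 control libraries correlated best with its own number. With the replicate block the log2 fold change was 1.79 for Ccr2, 0.50 for F13a1 and 0.23 for Mrc1, and 0 markers passed. The 4 markers under the filter rest on 42 to 153 counts over all libraries, which limits what could be detected for them.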

Other observations

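Ccl8, a chemokine gene of macrophages chosen here after its values were seen, had 0 to 5 counts in control and 4 to 22 counts in circTau6 libraries, 9 and 47 in all. It did not pass the count filter, and no test is given for a gene chosen in this way.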
